A study of Mus musculus with 16 samples.

Results

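Gene expression was compared in hepatic inflammatory cells, a cell fraction of the liver by its title. The mice had been treated with adipose tissue-derived stem cells (ADSC) or with phosphate-buffered saline (PBS). The samples were those titled hepatic inflammatory cells, 8 of the 16 arrays of the series, with 4 ADSC samples (numbers 7 to 10) and 4 PBS samples (numbers 11 to 14). The remaining 8 arrays held whole liver under the same treatments. All groups were female C57Bl/6 mice with cirrhosis after 40 weeks on an atherogenic high-fat diet. The ADSC groups received cells grown from inguinal fat of GFP-transgenic mice, 100000 per injection in 2 injections under the spleen capsule. Sampling followed the last injection by 2 weeks, and the PBS groups are labelled only with the vehicle. The labels do not say whether each array stands for a separate animal or whether equal numbers in liver and cells mark the same animal, so p-values measure the spread between these samples, which may be technical. The extraction protocol names infiltrating cells of a tumor, and blood, and how the liver fraction was isolated is not given in the sources used here.

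Each sample was hybridised to 1 one-colour Agilent array, and all levels are log2 signal after subtraction of the 75th percentile of that array. On the 8 arrays 56.3% to 66.3% of spots were well above background and 0 were saturated. Correlations were taken over 1 probe per gene, for genes well above background on 4 or more of the 8 arrays. They were 0.925 to 0.972 between PBS arrays, 0.913 to 0.969 between ADSC arrays and 0.887 to 0.967 between a PBS and an ADSC array. The fraction carried markers of several leukocytes on all 8 arrays: Cd3e of T cells, Csf1r of macrophages and Ltf of neutrophils were well above background on each. It also carried transcripts of other cells. Albumin (Alb) averaged 5.28 ± 0.53 in PBS and 5.97 ± 0.57 in ADSC cells (SD, n = 4), against 9.53 ± 0.33 in PBS liver. Digestive enzymes of the exocrine pancreas were uneven: the mean of 18 list members on PBS 11 to 14 was 6.19, 1.60, 8.39 and 2.25, and on ADSC 7 to 10 it was -1.35, 0.29, 1.04 and 8.39. PBS 11, PBS 13 and ADSC 10 therefore stood apart from the other 5 arrays.

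Neutrophils build their granules in sequence while they mature in bone marrow. Azurophil granules, made first, hold myeloperoxidase and serine proteases, specific granules made later hold lactoferrin and antimicrobial proteins, and gelatinase granules come last. The granule transcripts are most abundant in immature cells and fade as neutrophils mature, while receptors for chemoattractants and cytokines are markers of mature cells. Transcription factors of the C/EBP family and PU.1 drive this programme. In bulk samples such as these, fewer cells of a type and less RNA per cell cannot be told apart.

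The promoters of 4 granule genes whose levels fell are shown because the comparison turns on this group, as the 250 bases before the start site in RefSeq's GRCm38.p6 annotation, read 5′ to 3′ on the gene's own strand. Capitals mark matches to TTGCNNAA, a C/EBP-like motif, and GAGGAA, a PU.1-like motif, on either strand. The genes were chosen after their matches were seen, and a match is a description, not a binding site. Lactoferrin (Ltf), chr9:111019042-111019291, plus strand, had 1 match to each. The neutrophilic granule protein (Ngp), chr9:110419558-110419807, plus strand, had 2 C/EBP-like matches. Neutrophil collagenase (Mmp8), chr9:7558179-7558428, plus strand, had 1 match to each. Neutrophil elastase (Elane), chr10:79886062-79886311, plus strand, had 1 PU.1-like match.
Ltf: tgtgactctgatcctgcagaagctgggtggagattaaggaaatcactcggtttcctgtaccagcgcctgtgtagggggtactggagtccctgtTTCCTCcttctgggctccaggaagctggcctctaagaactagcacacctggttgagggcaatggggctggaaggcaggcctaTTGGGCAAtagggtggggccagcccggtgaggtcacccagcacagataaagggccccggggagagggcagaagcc
Ngp: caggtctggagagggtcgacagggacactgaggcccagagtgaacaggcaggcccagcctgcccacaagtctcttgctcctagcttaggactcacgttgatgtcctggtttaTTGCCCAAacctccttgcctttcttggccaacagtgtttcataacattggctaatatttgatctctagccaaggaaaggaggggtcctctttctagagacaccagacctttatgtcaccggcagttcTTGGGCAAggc
Mmp8: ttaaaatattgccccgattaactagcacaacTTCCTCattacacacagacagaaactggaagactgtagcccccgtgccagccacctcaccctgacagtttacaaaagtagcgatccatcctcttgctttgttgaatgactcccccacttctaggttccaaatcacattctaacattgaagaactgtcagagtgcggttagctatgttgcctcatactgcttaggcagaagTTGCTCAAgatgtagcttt
Elane: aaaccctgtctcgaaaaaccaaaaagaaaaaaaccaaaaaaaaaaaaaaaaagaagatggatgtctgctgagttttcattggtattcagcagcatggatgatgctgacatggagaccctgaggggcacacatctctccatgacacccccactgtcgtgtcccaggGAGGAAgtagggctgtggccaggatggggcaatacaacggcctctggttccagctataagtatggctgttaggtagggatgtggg
Of the 181 genes with a symbol that were lower after ADSC, 148 had a promoter in that table. A C/EBP-like match lay in at least 1 promoter of 20.9% of them, against 10.0% of the 9794 tested genes with a promoter. The PU.1-like motif was found for 38.5% against 26.5%, and the motif AGATAA, searched for comparison as that of GATA factors, for 8.8% against 8.5%. Over all 32851 promoters of that length, which belong to 27025 genes, the shares per gene were 10.8%, 25.9% and 11.4%. Within the granule lists the C/EBP-like motif was found for 0 of 4 azurophil and 4 of 10 specific granule genes (Lcn2, Ltf, Mmp8 and Ngp), and the PU.1-like motif for 4 of 4 and 7 of 10. These shares are counts without a test.

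The comparison asked which genes of the inflammatory cells differed after ADSC treatment. Of 20165 genes tested, 219 fell (1.09%) and 27 rose (0.134%), together 246 (1.22%), at an adjusted p under 0.05 in limma. Neutrophil granule genes were among those with the most negative changes. Neutrophil receptor genes, granule proteins of eosinophils and basophils and a set of monocyte and Fc receptor genes also fell. The 17 tested genes of mature B cells all lay on the higher side without passing. The fallen genes had a median log2 change of -1.80 and the risen genes of 1.49, while the median over all tested genes was 0.03. The number of calls depended on single arrays: it was 80 without PBS 12, 71 without ADSC 9, 89 without ADSC 10, 138 without ADSC 8 and 504 without ADSC 7. All ADSC arrays lay under all PBS arrays for 1346 tested genes (6.67%) and over them for 745 (3.69%). An unadjusted p under 0.05 in limma was found for 3736 tested genes (18.5%), the share beside which list counts at that level stand.

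The called genes were checked against the 3 arrays rich in pancreas transcripts. There were 118 tested genes above their level in all other arrays in PBS 11, PBS 13 and ADSC 10, and 50 below. None of the 246 called genes was among either set, while all 18 pancreas list members were in the first. Genes of these sets mix the treatments by definition and could hardly have passed, so this count of 0 carries little weight. With the pancreas list mean as a covariate 160 genes passed, 142 of them among the 246. Without the 3 arrays, which leaves 2 PBS against 3 ADSC arrays, 0 genes passed in limma and 4596 had an unadjusted p under 0.05. In that fit all 196 fallen and all 21 risen genes still tested kept their direction, with medians of -1.80 and 1.48. They had been called with these 2 PBS and 3 ADSC arrays included, so the kept direction carries little weight. No list member passed in the fit without the 3 arrays. The list medians there were -1.26 for monocytes, -1.81 for Kupffer cells and 1.33 for mature B cells. With the covariate the counts of fallen genes went from 10 to 8 for mature neutrophil, from 6 to 5 for monocyte, from 4 to 1 for C1q and Fc receptor and from 3 to 4 for eosinophil genes. They went from 2 to 0 for Kupffer cell and type I interferon genes and from 2 to 1 for gelatinase granule genes. The single fallen genes of the granulocyte factor, NADPH oxidase, CC chemokine, other cytokine and adipose stem cell lists, and the single risen gene of fatty acid synthesis, did not pass with it either.

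**Figure D1:**
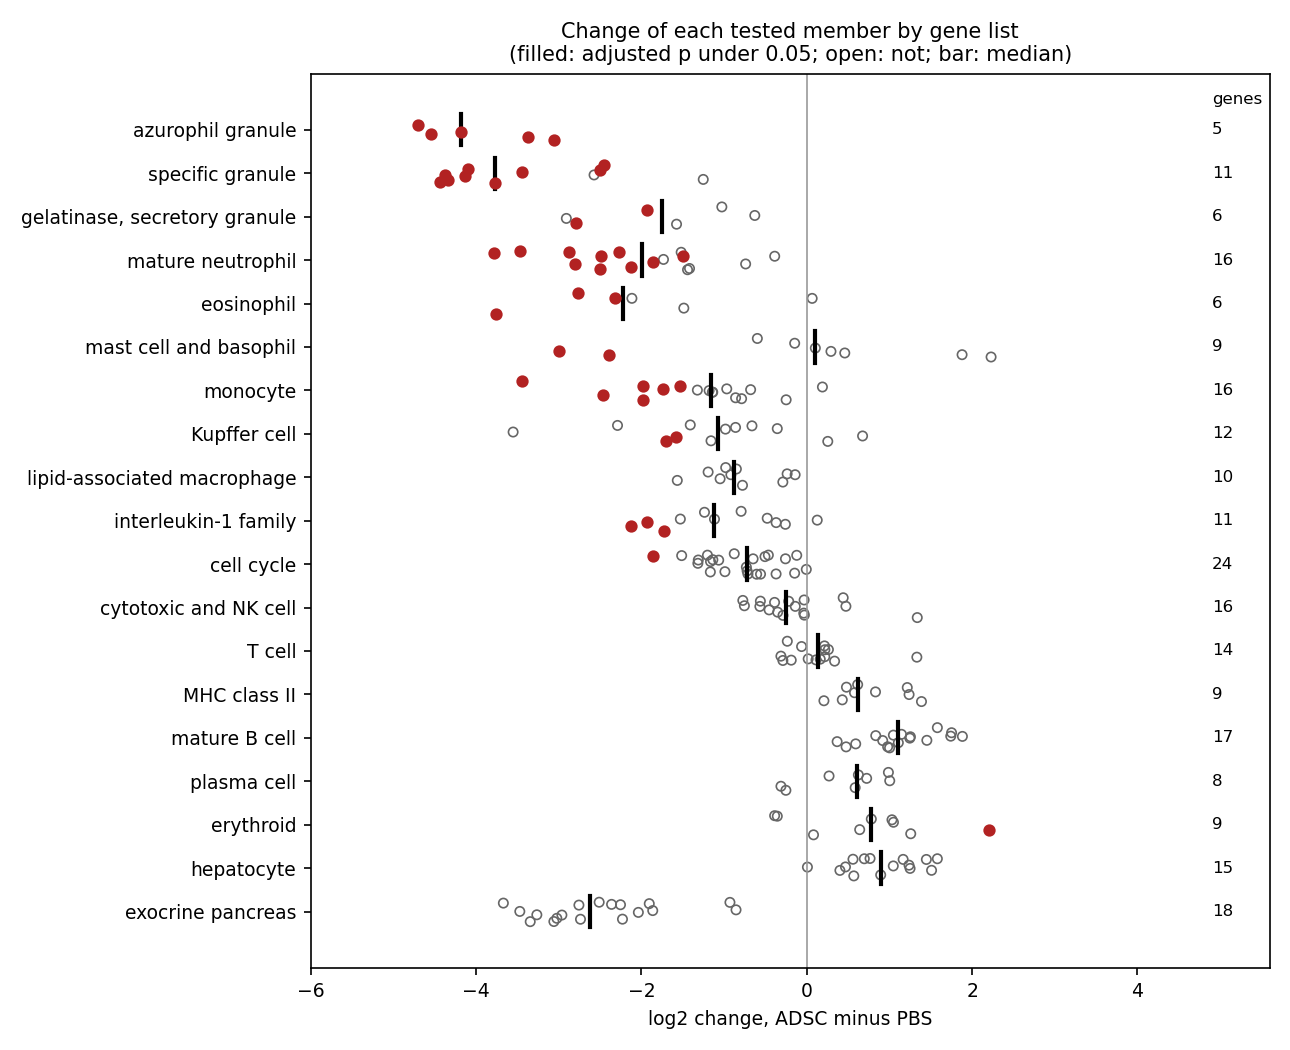
Log2 change of each tested member (horizontal axis, ADSC minus PBS) for 19 gene lists (rows), filled where the adjusted p was under 0.05, with the list median as a bar and the number of tested genes at the right. Azurophil and specific granule genes lie furthest to the left with medians of -4.18 and -3.77, and the 17 mature B cell genes all lie to the right of 0 with none filled.

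Of the azurophil granule genes Mpo, Ctsg and Prtn3 were well above background on all 8 arrays, and all 3 fell. Elane and Prss57 also passed, but entered the test through their PBS arrays. The median over the 5 was -4.18, and -2.46 with normexp background correction. Elane (probe A_51_P144551), which encodes neutrophil elastase, stood at 1.47, 2.87, 0.11 and 0.06 in PBS 11 to 14 and at -3.25, -2.82, -3.45 and -4.76 in ADSC 7 to 10. Every ADSC array lay below every PBS array, and only 1 ADSC array was well above background. The fitted change was -4.70 ± 0.61 on the log2 scale (SE, adjusted p = 0.00765) and -2.46 with normexp (adjusted p = 0.0212), so its size depends on how dim signals are treated. Myeloperoxidase (Mpo), the enzyme that makes hypochlorous acid, was at 5.83, 7.06, 3.71 and 4.93 in PBS and at 1.27, 1.72, 1.33 and 0.47 in ADSC, a change of -4.18 ± 0.59 (adjusted p = 0.0102). PBS 12 was highest for both genes, and both groups were apart. Ctsg, cathepsin G, fell by 4.54 and Prtn3, proteinase 3, by 3.06. Prss57, a further serine protease, was not well above background on any ADSC array and was at least 4.85-fold lower, where that bound sets the PBS mean against the detection limit of the ADSC arrays. It did not pass with normexp (adjusted p = 0.163). Bpi, the bactericidal permeability protein, was too dim to test.

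Of 11 specific granule genes 9 fell, and all 11 estimates were negative, with a median of -3.77. Ltf (probe A_52_P15388) was at 7.22, 8.17, 5.76 and 5.92 in PBS 11 to 14 and at 2.70, 2.68, 2.16 and 1.77 in ADSC 7 to 10. The lowest PBS array thus exceeded the highest ADSC array by several log2 units, and the change was -4.44 ± 0.49 (SE, adjusted p = 0.00262). Camp, the cathelicidin antimicrobial peptide, stood at 7.05, 7.45, 6.87 and 5.40 in PBS and at 2.70, 3.04, 2.08 and 1.59 in ADSC (-4.34 ± 0.45, adjusted p = 0.00242). Ngp fell by 4.37, Lcn2, the iron-scavenging lipocalin, by 4.14, the integrin Itgb2l by 4.09, Mmp8 by 3.77 and the chitinase-like protein Chil3 by 3.45. Ceacam10 and Pglyrp1, a peptidoglycan-binding protein, fell by 2.51 and 2.45. The members that did not pass were Cd177 at -2.57 and haptoglobin (Hp) at -1.25 (adjusted p = 0.139).

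Gelatinase and secretory granule genes had a median of -1.76, with 2 of 6 passing. Fcnb, a ficolin, fell by 2.79 and arginase 2 (Arg2) by 1.94. Mmp9, gelatinase B, was at 3.20, 3.85, 0.32 and 1.77 in PBS and at -1.15, -0.20, -0.60 and -0.55 in ADSC. The groups did not overlap, but PBS 13 lay close to the ADSC arrays and the change of -2.91 ± 0.63 did not pass (adjusted p = 0.0572). Adam8, Cybb and Slc11a1 were at -1.58, -1.03 and -0.63.

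Of 16 mature neutrophil genes 10 fell, and all 16 estimates were negative (median -2.0). S100a8, a subunit of calprotectin, was at 9.51, 9.09, 9.61 and 8.38 in PBS 11 to 14 and at 6.75, 6.52, 5.95 and 6.15 in ADSC 7 to 10. The groups were apart by more than their own range, with a change of -2.81 ± 0.31 (SE, adjusted p = 0.00262). Its partner S100a9 fell by 1.50. The stefin Stfa2l1 fell by 3.78, Retnlg, a resistin-like protein, by 3.47 and Trem1, an activating receptor, by 2.87. The formyl peptide receptors Fpr2 and Fpr1 fell by 2.51 and 2.28, Mrgpra2b by 2.49, the decoy receptor Il1r2 by 2.13 and the lectin Clec4e by 1.86. Receptors that direct neutrophils out of bone marrow did not pass: Cxcr2 was at -1.52 (adjusted p = 0.106) and Csf3r, the receptor of granulocyte colony-stimulating factor, at -1.44 (adjusted p = 0.169). For Csf3r the groups overlapped, at 3.37, 3.59, 1.30 and 2.29 in PBS and 0.54, 1.43, 1.32 and 1.48 in ADSC.

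The granule medians kept their direction within the batches that hold both treatments, whose arrays also entered the main fit. The specific granule median was -3.56 on slide 2 (PBS 11 and ADSC 8), -4.58 on slide 3 (PBS 12 and ADSC 7) and -3.87 on scan day 3 (PBS 13 against ADSC 9 and 10). The azurophil median was -3.87, -5.69 and -2.81 in the same order, and the mature neutrophil median -2.36, -2.59 and -2.41. When 1 array was left out the counts were 7 to 10 of 11 specific granule and 7 to 12 of 16 mature neutrophil genes. Of the azurophil genes 4 of 4 tested passed with any single PBS array left out, 4 of 5 without ADSC 9 or ADSC 10 and 5 of 5 without ADSC 7 or ADSC 8, and the gelatinase count was 0 without PBS 12, ADSC 8, ADSC 9 or ADSC 10. With slide as a fixed term, or without the 3 pancreas-rich arrays, 0 members of these lists passed while their medians stayed negative, at -4.50 and -3.64 for the azurophil and specific granule lists in the latter fit.

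**Figure D2:**
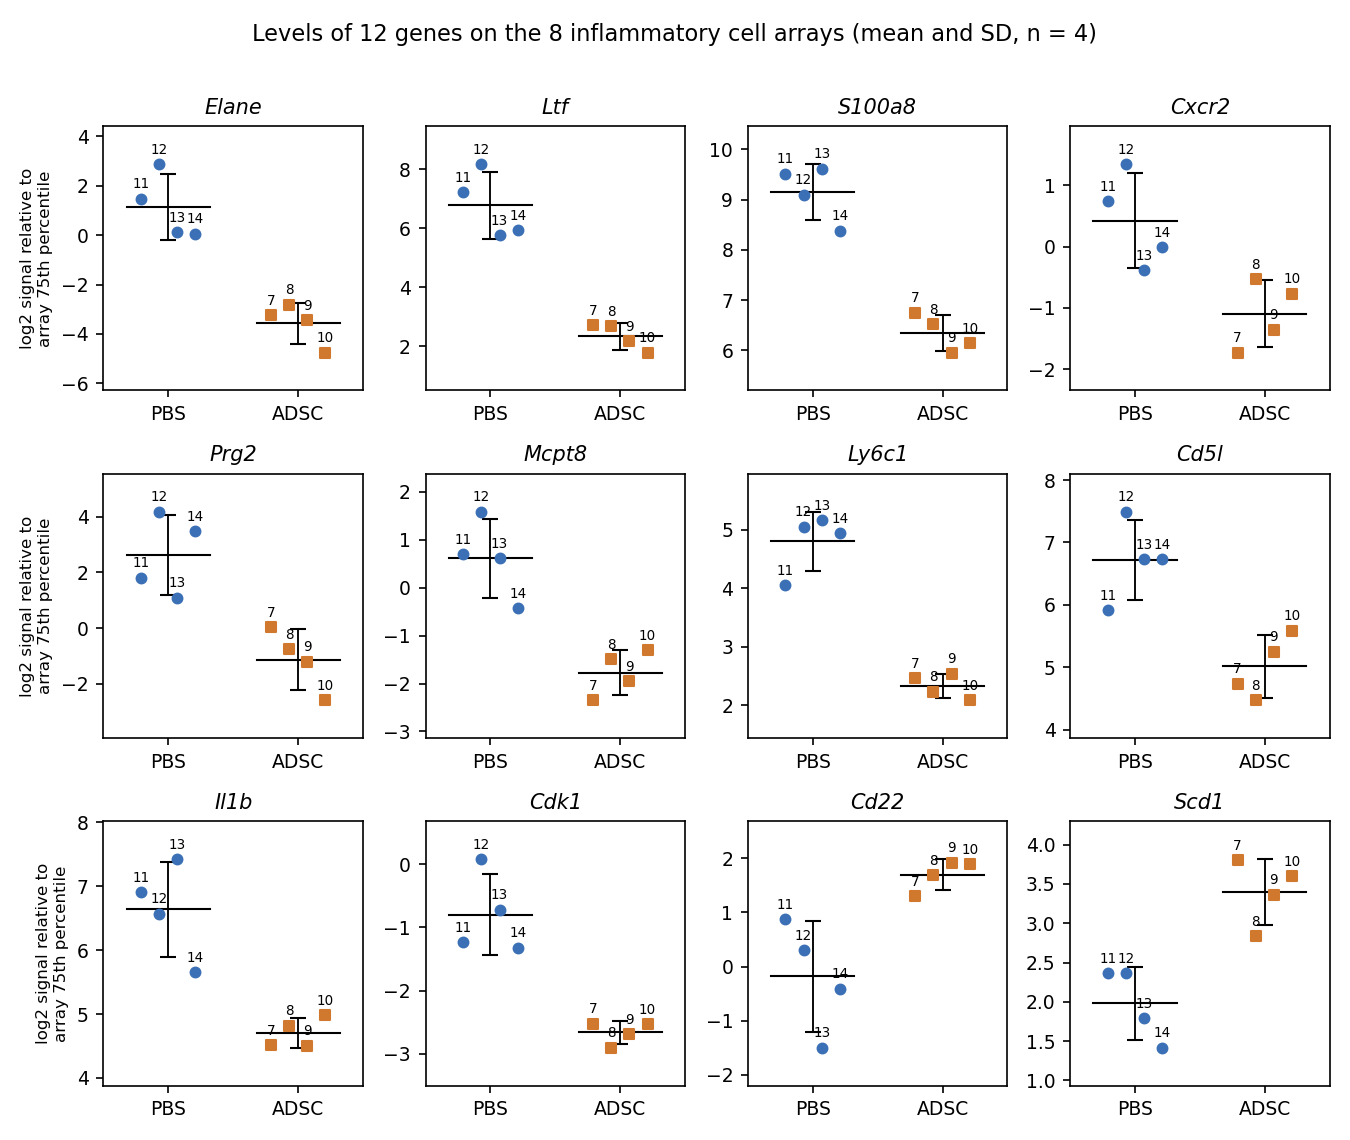
Level of 12 genes (vertical axes, log2 signal minus the array's own 75th percentile, scaled separately) on the 4 PBS and 4 ADSC arrays, with sample numbers beside the points and the mean with SD as bars. For 12 of 12 genes the ADSC and PBS points do not overlap, although Cxcr2 and Cd22 did not pass the threshold. The genes are chosen examples, so this count says nothing about genes in general. Of all tested genes 6.67% had every ADSC array below every PBS array and 3.69% above.

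Few transcription factor and progenitor genes passed. Of 8 granulocyte transcription factors 1 fell, Cebpb, by 1.26 ± 0.25 (SE, adjusted p = 0.0365), with Cebpd at -1.23 (adjusted p = 0.0795), Cebpa at -0.57, Spi1, which encodes PU.1, at -0.48 and Gfi1 at 0.14. Cebpb did not pass without PBS 11, PBS 12, ADSC 8, ADSC 9 or ADSC 10. It lay at 6.85, 6.67, 6.04 and 5.98 in PBS and between 5.05 and 5.23 in ADSC. Of 11 stem and progenitor genes (median -0.15) 1 fell: Ms4a3, a marker of granulocyte and monocyte progenitors, by 3.18 ± 0.47 (adjusted p = 0.011), from 1.98, 3.49, 2.02 and 0.88 to -1.66, -0.76, -0.70 and -1.21. Kit and Cd34, markers of earlier progenitors, were at -0.15 and -0.55, and the PBS and ADSC arrays overlapped for Kit.

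Granule genes of other granulocytes fell too. Of 6 tested eosinophil genes 3 passed (median -2.22), but only Prg2 and Ear1 were well above background on all 8 arrays, and in the fit of such genes both passed. Prg2 (probe A_51_P363400), the eosinophil major basic protein, stood at 1.81, 4.18, 1.09 and 3.48 in PBS 11 to 14 and at 0.04, -0.75, -1.20 and -2.59 in ADSC 7 to 10, a change of -3.77 ± 0.70 (SE, adjusted p = 0.0295). PBS 12 and PBS 14 were the high arrays, whereas PBS 14 had the lowest specific granule list mean of the PBS arrays. Siglecf, a surface lectin of eosinophils, was not well above background on any ADSC array and was at least 3.98-fold lower, although it did not pass with normexp (adjusted p = 0.14). The ribonuclease Ear6 fell by 2.32, and its relative Ear1 was at -1.49 (adjusted p = 0.0632). Epx, eosinophil peroxidase, was at -2.12 and the chemokine receptor Ccr3 at 0.06. The eosinophil count was 0 without PBS 12 and 1 without PBS 14, ADSC 9 or ADSC 10, and the list median was -0.96 with normexp background correction.

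Of 9 basophil and mast cell genes 2 fell, both basophil proteases (list median 0.10). Mcpt8, a basophil protease, stood at 0.69, 1.58, 0.61 and -0.43 in PBS and at -2.35, -1.50, -1.95 and -1.30 in ADSC, and fell by 2.39 ± 0.40 (SE, adjusted p = 0.019). Prss34, also of basophils, fell by 3.00 ± 0.46 (adjusted p = 0.0126). The mast cell chymase Mcpt4 was at -0.59, -2.76, -0.06 and -2.38 in PBS and at 1.01, 0.70, 0.12 and 1.28 in ADSC, so that all ADSC arrays were above all PBS arrays, but its difference of 2.23 ± 0.56 did not pass (adjusted p = 0.0912). It passed as higher in the fit with the pancreas covariate (adjusted p = 0.028). Cma1, another chymase, was at 1.88, while Cpa3 and Tpsb2, also made by mast cells, were at 0.10 and 0.29.

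**Figure D3:**
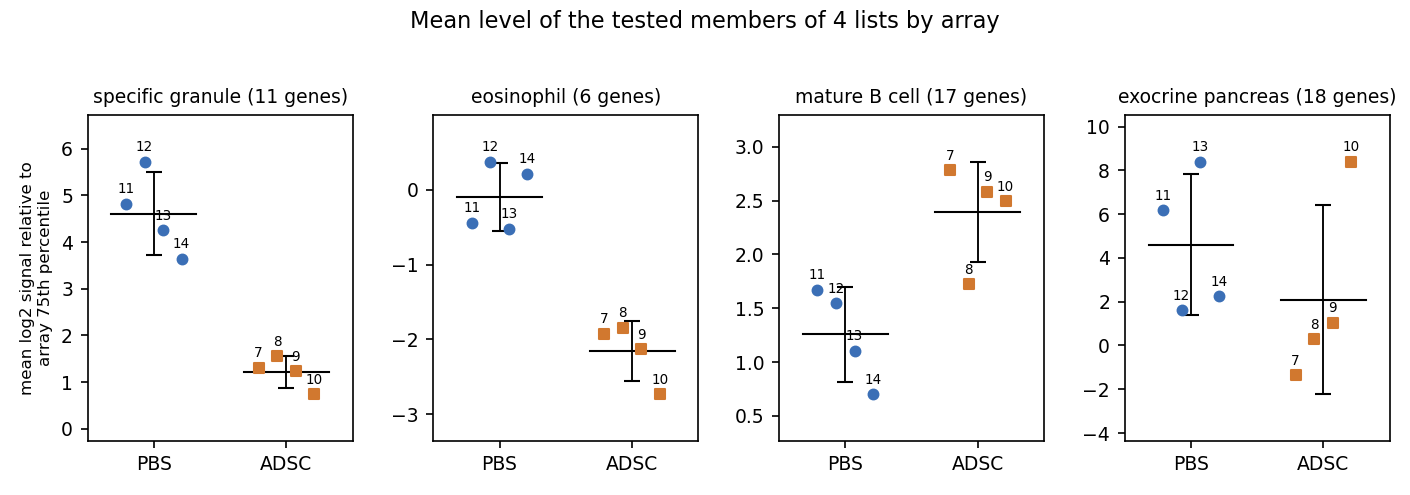
Mean level of the tested members of 4 lists (vertical axes, log2 signal minus the array's own 75th percentile) on each array, with sample numbers, group mean and SD. Specific granule and eosinophil means are lower on every ADSC array, the mature B cell mean is higher on every ADSC array, and the pancreas mean is high on PBS 11, PBS 13 and ADSC 10 in both groups.

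Monocyte genes had a median of -1.16, and 6 of 16 fell. This count was 4 without PBS 12, ADSC 9 or ADSC 10 and 8 without PBS 11. Ly6c1, a gene of the Ly6C antigen, was at 4.05, 5.05, 5.16 and 4.93 in PBS 11 to 14 and at 2.46, 2.23, 2.54 and 2.08 in ADSC 7 to 10. The change was -2.47 ± 0.27 (SE, adjusted p = 0.00262), with the groups well apart. Whether the Ly6c1 signal came from monocytes was not tested. The coagulation factor F13a1 fell by 1.98, the lipopolysaccharide co-receptor Cd14 by 1.99, the IgG receptors Fcgr3 and Fcgr1 by 1.74 and 1.53, and Chil3, also in the specific granule list, by 3.45. Members that did not pass were Ccr2 at -1.18, Adgre1 at -1.14, Csf1r, the macrophage growth factor receptor, at -0.86 (adjusted p = 0.159), Lyz2 at -0.79 and Cx3cr1 at -0.25. Patrolling monocyte genes Ace and Treml4 stood at 0.19 and -0.68. Cd14, Fcgr3 and Fcgr1 are not limited to monocytes, and the neutrophil lists moved with this list. Their part in the result was not tested.

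Of 8 genes for C1q and Fc receptors of IgG 4 fell (median -1.13): Fcgr3, Fcgr1, Fcgr4 by 1.39 and Fcer1g, the signalling chain they share, by 1.45. This count was 1 without PBS 12, ADSC 9 or ADSC 10. Kupffer cell genes had a median of -1.07, and 2 of 12 fell. Cd5l, a scavenger protein of tissue macrophages, stood at 5.91, 7.50, 6.73 and 6.73 in PBS and at 4.74, 4.47, 5.25 and 5.59 in ADSC (-1.70 ± 0.36 SE, adjusted p = 0.0492), and the iron exporter Slc40a1 fell by 1.59 ± 0.29 (adjusted p = 0.0275). The most selective Kupffer marker, Clec4f, was at 1.68, 4.03, 1.99 and 3.43 in PBS and at -2.75, -2.28, 0.36 and 1.59 in ADSC. The ADSC arrays spanned several log2 units, and the change of -3.55 ± 0.90 did not pass (adjusted p = 0.0948). Vsig4 was at -2.29, Marco at -0.86, Timd4 at 0.25 and Cd163 at 0.67. The Kupffer count was 0 without PBS 12, PBS 14, ADSC 8 or ADSC 9. All 10 lipid-associated macrophage genes, which mark macrophages of fatty and scarred liver, were below 0 (9 with quantile normalization), with 0 passing in limma (median -0.89, 7 at an unadjusted p under 0.05). With normexp and the 75th percentile 5 of them passed, with normexp and quantile normalization 0, and in the fit of all 16 arrays 6. Spp1, osteopontin, was at -1.57, Cd9 at -1.19, Cd63 at -1.05 and Trem2 at -0.92.

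Among signalling molecules, 3 of 11 genes of the interleukin-1 family fell (median -1.12). Il1b, the inflammatory cytokine, was at 6.91, 6.57, 7.42 and 5.65 in PBS 11 to 14 and at 4.52, 4.82, 4.50 and 4.99 in ADSC 7 to 10. It fell by 1.93 ± 0.34 (SE, adjusted p = 0.0255), and the lowest PBS array exceeded the highest ADSC array. The decoy receptor Il1r2 fell by 2.13 and Il18bp, which binds interleukin-18, by 1.73, so the fallen members include 2 inhibitors beside the cytokine. Il1rn, a receptor antagonist, was at -1.53 and the inflammasome sensor Nlrp3 at 0.13. This count was 0 without PBS 12, ADSC 8 or ADSC 9, and 1 without ADSC 10.

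Few chemokine genes passed. Of 14 CXC chemokines and receptors 1 fell: Cxcl5, a neutrophil attractant, from 0.02, 1.00, -0.56 and 0.17 to -3.11, -4.88, -4.78 and -4.07 (-4.37 ± 0.43 SE, adjusted p = 0.00242). It was well above background on 1 ADSC array only, and with normexp background correction its change was -1.75. Cxcl2 was at -1.54 (adjusted p = 0.0709) and Cxcl1 at 0.55. Of 17 CC chemokines and receptors 1 fell, Ccr1, which was well above background on 1 ADSC array, by 2.45 ± 0.48 (adjusted p = 0.0391), while the monocyte attractant Ccl2 was at -1.32 and Ccr7, a lymphocyte homing receptor, at 1.33. Among 16 other cytokines Il15 fell by 1.27 ± 0.25 (adjusted p = 0.0376). Il17a was at 3.16, 3.40, 4.40 and 3.02 in PBS and at 2.47, -1.15, 0.78 and 0.93 in ADSC, a difference of -2.73 ± 0.63 that did not pass (adjusted p = 0.0687), and Tnf and Ifng were at -0.38 and -0.39. With normexp and the 75th percentile neither Ccr1 nor Il15 passed, at -0.70 and -0.49, while with normexp and quantile normalization Ccr1 passed at -1.07 (adjusted p = 0.0192) and Il15 did not (adjusted p = 0.0502). The CC count was 0 without PBS 11, PBS 12, PBS 13, ADSC 8 or ADSC 10. The cytokine count was 0 without PBS 11, PBS 12, PBS 13, ADSC 8, ADSC 9 or ADSC 10, and 2 without PBS 14 or ADSC 7.

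Innate sensing genes had a median of -0.91 with 2 of 11 passing, Tlr2 (-1.38 ± 0.22 SE, adjusted p = 0.017) and Cd14. That count was 0 without PBS 12, ADSC 9 or ADSC 10 and 3 without ADSC 7. Of 6 subunits of the phagocyte NADPH oxidase, which makes superoxide, all were below 0 and 1 fell, Cyba, by 1.00 ± 0.19 (adjusted p = 0.035), with Cybb at -1.03. This count was 4 with normexp and the 75th percentile, 0 with quantile normalization, 3 without PBS 13 and 0 without any other 1 array except ADSC 7. Of 7 leukocyte antiproteases and stefins 2 fell, Wfdc21 by 4.03 and Stfa2l1, while Slpi was at -1.32 (adjusted p = 0.0796). Of 17 type I interferon response genes 2 fell, Rtp4 by 1.12 and Oas1a by 1.01, against a list median of -0.63, and 0 passed without PBS 12, PBS 14, ADSC 8, ADSC 9 or ADSC 10 and 1 without PBS 11. All 24 cell cycle genes were below 0 (22 or 23 under the other scalings, median -0.73), and 1 passed: Cdk1, the mitotic kinase, stood at -1.23, 0.08, -0.72 and -1.32 in PBS and between -2.90 and -2.52 in ADSC (-1.86 ± 0.31, adjusted p = 0.019). With normexp it did not pass after 75th percentile scaling (-0.80, adjusted p = 0.111) but passed after quantile normalization (-1.05, adjusted p = 0.0299). The cell cycle count was 0 without ADSC 8, ADSC 9 or ADSC 10 and 2 without PBS 14, and the median was -0.50 without PBS 12. All 15 glycolysis genes (median -0.60) and all 20 oxidative phosphorylation genes (median -0.45) were also below 0, or 14 and 17 to 20 under the other scalings, with 0 passing in limma in either list. The oxidative phosphorylation median was -0.18 with quantile normalization and -0.27 without PBS 13. With normexp and the 75th percentile 3 glycolysis genes passed, and without PBS 14 there were 2. At an unadjusted p under 0.05 there were 7 and 4, among them Hk3 at -1.50 and Ndufb8 at -0.52. The share of all tested genes at that level was 18.5%, close to that of the oxidative phosphorylation list.

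All 17 mature B cell genes were above 0 (median 1.11), and 0 passed in limma while 14 had an unadjusted p under 0.05. Cd22, an inhibitory receptor of B cells, was at 0.88, 0.30, -1.50 and -0.41 in PBS 11 to 14 and at 1.30, 1.69, 1.92 and 1.89 in ADSC 7 to 10, a difference of 1.88 ± 0.44 (SE, adjusted p = 0.0709). PBS 13 was lowest, and the groups did not overlap. Fcer2a, the low-affinity IgE receptor, was at 1.58 ± 0.34 (adjusted p = 0.0584) and Ebf1, a B lineage transcription factor, at 1.75 ± 0.40 (adjusted p = 0.0691). Of the 17 genes 7 had every ADSC array above every PBS array, against 3.69% of all tested genes. The median was 0.04 on slide 2, 1.03 on slide 3 and 1.34 on scan day 3. Without PBS 11, 3 members passed as higher, and 1 without ADSC 8. In the fit of all 16 arrays 6 passed, with array weights 13, and with only genes above background on all 8 arrays 3. Quantile normalization gave 1, or 2 after normexp, and normexp with the 75th percentile gave 1. With no filter on dim probes, or with slide or scan day as a fixed term, 0 passed. The same held with the brightness or pancreas covariate. The 9 MHC class II genes were all above 0 (median 0.62, with 1 below 0 after normexp and 75th percentile scaling) with Ciita, their regulator, at 1.39 ± 0.32 (adjusted p = 0.0709), and 0 passed in limma against 6 at an unadjusted p under 0.05. Their median was -0.02 on slide 2, 0.72 on slide 3 and 1.08 on scan day 3, and 1 passed as higher without PBS 11 or without ADSC 7. T cell genes had a median of 0.14 and cytotoxic and NK cell genes of -0.25, with 0 of 14 and 0 of 16 passing in limma (1 and 2 at an unadjusted p under 0.05). Cd3e, of the T cell receptor complex, was at 0.17, 0.54, 0.08 and 1.27 in PBS and at 0.69, 0.01, 0.47 and 0.12 in ADSC, with full overlap. Of 8 plasma cell genes 0 passed in limma (median 0.60, 2 at an unadjusted p under 0.05), with Pou2af1 at 0.99.

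Few genes of the lists rose. Of 9 tested erythroid genes 1 rose (median 0.78, with 1.09 on slide 2, -1.51 on slide 3 and 1.90 on scan day 3). Among those that did not pass, Alas2, the enzyme that starts heme synthesis in red cells, was at 1.26, Hba-a1 at 0.64 and Klf1 at -0.36. The erythroid list mean was 0.75 in ADSC 7 and 2.56 to 2.69 in the other 3 ADSC arrays, against 1.03 to 1.84 in PBS, and without ADSC 7 there were 5 erythroid genes that rose. Scd1, a fatty acid desaturase, stood at 2.36, 2.36, 1.79 and 1.41 in PBS and at 3.80, 2.84, 3.36 and 3.60 in ADSC, a rise of 1.42 ± 0.30 (adjusted p = 0.0495), while the other 14 genes of sterol and fatty acid synthesis did not pass (list median -0.10). Scd1 did not pass when any 1 array other than ADSC 8 was left out.

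Outside the gene lists, the 15 fallen genes with the smallest adjusted p were Chil4, Anxa1, Mfsd7a, Ifitm6, Cstdc6, Csta1, Clec5a, Clec4a2, Mcemp1, Alox5ap, Clec4n, Scrg1, Prdx5, Ppp1r42 and Pygl. Chil4, a chitinase-like neighbour of Chil3, fell by 4.00. Annexin A1 (Anxa1), a phospholipid-binding protein that limits neutrophil entry, was at 6.19, 7.20, 6.56 and 5.51 in PBS and at 3.44, 3.12, 3.28 and 3.18 in ADSC (-3.11 ± 0.33 SE, adjusted p = 0.00244). Alox5ap, needed for leukotriene synthesis, fell by 1.86 and lay between 4.60 and 4.69 on the ADSC arrays. Pygl, glycogen phosphorylase, fell by 2.13, and Prdx5, a peroxiredoxin, by 1.75. Mfsd7a and Ppp1r42 were not well above background on any ADSC array and were at least 2.94-fold and 3.99-fold lower. The 9 risen genes were Slc35d1, Sostdc1, Dclk2, Chst3, Zfp318, Svs2, Ablim1, Mef2c and Srpk3. No PBS array had Svs2 well above background, and it was at least 2.27-fold higher after ADSC. Mef2c, a transcription factor active in B cells among others, was at 1.02, 0.32, 0.35 and 0.55 in PBS and at 2.47, 1.33, 1.94 and 1.97 in ADSC, a rise of 1.37 ± 0.28 (adjusted p = 0.0435). Zfp318, a zinc finger protein required for surface IgD, rose by 1.33 ± 0.25 (adjusted p = 0.0328). Near-identical neighbours such as Chil3 and Chil4, or the stefins Stfa2l1, Csta1 and Cstdc6, may share hybridisation, which was not tested. Their falls should therefore not be counted as independent.

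Markers of other cells that the fraction could hold were set beside these groups. The 15 hepatocyte genes were all above 0 (median 0.89, with 1 below 0 after normexp) with 0 passing in limma and 7 at an unadjusted p under 0.05, and the list mean ran from 0.20 to 1.75 in PBS and from 1.41 to 2.84 in ADSC. The hepatocyte median was 1.74 on slide 2, -0.32 on slide 3 and 1.03 on scan day 3, and 0.53 without ADSC 8. Apoa1, the main protein of high-density lipoprotein, was at 1.58 (adjusted p = 0.136) and Alb at 0.70. The 10 stellate and fibroblast genes had a median of 0.40 and the 11 sinusoidal endothelial genes of -0.04, with 0 passing in limma and 2 and 4 at an unadjusted p under 0.05, Lyve1 of sinusoidal endothelium at 1.50 among them. The platelet marker Clec1b, also expressed by Kupffer cells, fell by 1.96 ± 0.29 (adjusted p = 0.0121), but the other 6 platelet genes did not pass. Among 9 genes used to identify adipose stem cells Pi16 fell by 1.78 ± 0.35 (adjusted p = 0.0364, not passing without PBS 11, PBS 12, ADSC 9 or ADSC 10), and Ly6a, Thy1 and Cd34 were at -0.57, -0.24 and -0.55. The part of hepatocyte transcripts in the results was not tested.

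Whole liver from the same treatments was measured on separate arrays. There 0 of 17321 genes passed (0.0%) in limma, with 806 (4.65%) at an unadjusted p under 0.05. Of the 219 genes that fell in the inflammatory cells, 187 were tested in liver, and 145 of these (77.5%) were below 0, against 40.2% of all genes tested there. Their median was -0.32 in liver. Several neutrophil members were further down: Ngp was at -4.46 ± 0.77, Ltf at -4.35 ± 0.81, Camp at -4.39 ± 0.89, Mpo at -4.54 ± 0.87 and S100a8 at -3.40 ± 0.68 (SE), each with an adjusted p between 0.514 and 0.589. The azurophil, specific granule and mature neutrophil medians were -3.77, -2.54 and -2.15 in liver. The gelatinase and secretory granule median was only -0.33, with 3 of 5 genes below 0. The monocyte and Kupffer medians were -0.30 and -0.40, and the cell cycle median was 0.21 with 0 of 19 genes below 0.

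**Figure D4:**
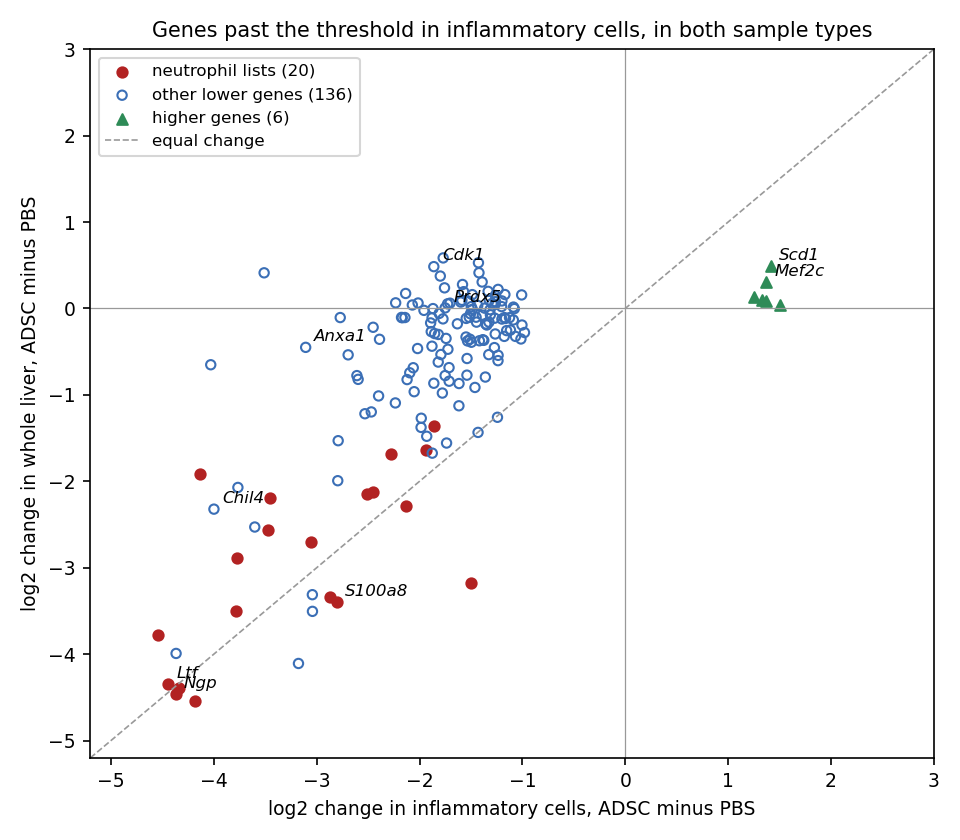
Log2 change of genes with a symbol that passed in the inflammatory cells and were tested in liver, in cells (horizontal axis) and in whole liver (vertical axis), with the diagonal of equal change. All 20 neutrophil list members lie below 0 in liver with a median of -2.80, the other 136 lower genes have a liver median of -0.23, and the 6 higher genes lie above 0.

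The difference between the treatment effects in cells and liver passed for 7 of 22139 genes (0.0316%), and 10.1% had an unadjusted p under 0.05. All 7 had a lower treatment effect in cells than in liver. They were Mfsd7a, Prdx5, Ppp1r42, Smim5, Dstn, Cdk1 and BC049694. The count rested on single cell arrays, with 46 genes without PBS 14, 20 without ADSC 7, 14 without PBS 11, 4 without ADSC 8, 3 without ADSC 9, 2 without PBS 13 and 1 without ADSC 10. Prdx5 was at 5.19, 5.58, 5.47 and 4.75 in PBS cells and at 3.47, 3.67, 3.43 and 3.42 in ADSC cells, while its liver means were 4.08 ± 0.09 and 4.09 ± 0.14 (SD, n = 4). The difference was -1.76 ± 0.25 (SE, adjusted p = 0.0272). Dstn, destrin, which depolymerises actin, differed by -2.11 ± 0.33 (adjusted p = 0.0367) with a liver change of 0.04. No neutrophil granule gene passed this test: the difference was -0.09 for Ltf, 0.09 for Ngp and -2.21 for Lcn2 (adjusted p = 0.239). Anxa1 and Wfdc21, which were at -0.45 and -0.65 in liver, differed by -2.66 and -3.38 (adjusted p = 0.0804 for both).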

How the data were processed

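Total RNA labelled with Cy3 was measured on 16 one-colour arrays, 1 scanner file each. The deposited processed signal is an intensity from which Agilent's Feature Extraction software had removed background and a spatial trend, per the file headers, without scaling between arrays, and the authors' value table holds the same numbers (largest relative difference 0). The deposited median spot and background intensities served the normexp alternative with an offset of 50.

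Spots of a probe were averaged without outlier spots (71 to 111 per array of the 8), log2 was taken and the array's 75th percentile over 41174 probes was subtracted. The GRCm38.p6 annotation gave 23374 probes a symbol by accession, and the other 17800 kept the file's name. The brightest of a gene's probes stood for it. Genes whose probe was well above background on 4 or more of the fitted arrays were tested in limma 3.58.1 (R 4.3.3, lmFit and eBayes), adjusted by Benjamini-Hochberg with a threshold of 0.05. Cells and liver were fitted separately, and the difference of their treatment effects with 4 group means in a joint fit of the 16 arrays. The number of arrays limits the precision. The script was tested on simulated data.

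The members and the 51 gene lists were chosen with earlier results of these data known. Of 589 listed genes 554 were matched on the array and 516 were tested. A Y-linked list, used to check the sex label, had 0 tested genes. Genes were named by a rule: every passing member of a list, the 3 smallest p in lists with fewer than 3 passing, 18 defining genes, and 15 passing genes outside the lists in each direction (9 with a symbol existed among those that rose). Of these, the text gives those that carry a comparison, and further list members are given for context; some genes are not reported here. Sample numbers do not pair PBS with ADSC arrays, which share none. Correlations of same-numbered liver and cell samples, as deviations from group means, ran from -0.06 to 0.17. Slides and scan days were read from the files; slide 2, slide 3 and scan day 3 hold both treatments. The alternatives were other scalings, background correction, filters, probe rules, covariates, batch terms and leaving out arrays. Promoter positions are those of GRCm38.p6, and no array positions are given, since the array was designed on an older build.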

Additional observations from a re-analysis of the deposited data

Results flagged for a closer look

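There were 6 list means that had 1 array far from the other 3 of its group, among 100 groups of 4 checked, where chance gives about 1 in 20. The MHC class II mean was 3.44 in ADSC 8 and 3.98 to 4.06 in the other ADSC arrays. The heat shock mean was also lowest in ADSC 8, at 6.03 against 6.64 to 6.69. ADSC 7 was low in the erythroid mean, at 0.75 against 2.56 to 2.69, and in the mean of iron and heme handling genes, at 1.91 against 2.26 to 2.32. PBS 13 was low in the mean of sterol and fatty acid synthesis genes, at 0.46 against 0.86 to 0.88, and in the mean of leukocyte adhesion genes, at 2.12 against 2.45 to 2.51.

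The treatment effect differed between inflammatory cells and liver for 7 genes in the limma fit of all 16 arrays, as cell change minus liver change on the log2 scale. The difference was -2.76 for BC049694 (-2.02 in cells and 0.74 in liver, adjusted p = 0.0226), -2.04 for Mfsd7a (-2.14 and -0.10, adjusted p = 0.0226), -1.76 for Prdx5 (-1.75 and 0.01, adjusted p = 0.0272) and -3.92 for Ppp1r42 (-3.51 and 0.41, adjusted p = 0.0338). It was -1.96 for Smim5 (-1.43 and 0.53, adjusted p = 0.0338), -2.11 for Dstn (-2.07 and 0.04, adjusted p = 0.0367) and -2.35 for Cdk1 (-1.86 and 0.48, adjusted p = 0.0487). Mfsd7a and Ppp1r42 were not well above background on any ADSC cell array, so their values are dim measurements. Cdk1 was also low, with means of -2.66 in ADSC cells, -2.76 in PBS liver and -2.28 in ADSC liver. The Smim5 means in PBS and ADSC liver were -2.16 and -1.63.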

How the results depend on the processing

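Against 246 genes that passed in the inflammatory cells, 376 passed with normexp and the 75th percentile, 932 in 1 fit of all 16 arrays, 821 with slide as a random block (correlation 0.47) and 4337 with array weights, of which 2550 rose. Fewer passed with no filter on dim probes (115), scan day as a term (161), array brightness as a covariate (61) and the pancreas list mean as a covariate (160). With slide as a fixed term 0 passed (5345 at an unadjusted p under 0.05), and without PBS 11, PBS 13 and ADSC 10 also 0 (4596). The count ran from 71 to 504 when 1 array was left out. The other 5 alternatives gave 170 to 303. Of the 246 genes, 245 also passed with array weights, 246 with the random slide block, 227 in the 16-array fit, 181 with normexp and the 75th percentile, and 53 with the brightness covariate. The cause of these shifts was not tested. Over 81 named genes that passed and 23 alternatives, 1318 of 1822 values stayed past the threshold, 504 did not, and 0 changed direction. The alternatives reuse the arrays on which these genes were called, so the count of 0 carries little weight.

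For the 7 genes that differed between cells and liver, the sample number as a replicate block over both (correlation -0.004) gave 6 genes, no filter on dim probes gave 0 (2522 at an unadjusted p under 0.05), and leaving out 1 cell array gave 1 to 46. PBS and ADSC samples share no numbers, so no pairing by number within the cell comparison was possible. In liver 0 genes passed in limma with no filter and with each liver array left out (471 to 1342 at an unadjusted p under 0.05). Signal over background limits the lowest values: genes not well above background on the ADSC arrays have only a bound there.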

Other observations

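Several gene families held more than 1 fallen gene. They were grouped by the stem of the symbol after the lowered genes had been seen. The thiol redox group joins several stems and was put together by function, also after that. Some members are also in the lists (Clec4e, Clec1b, S100a8 and S100a9 among the fallen). The families therefore carry no test of their own, and 1.09% of all tested genes fell. Of 6 tested Schlafen genes, interferon-inducible regulators of growth in immune cells, 4 fell (median -1.43). Slfn4 was at 3.17, 3.56, 2.38 and 1.72 in PBS 11 to 14 and at 0.37, 0.28, 0.00 and 0.70 in ADSC 7 to 10, a change of -2.37 ± 0.37 (SE, adjusted p = 0.0152). Every ADSC array lay below every PBS array, and PBS 14 was the lowest of its group. Slfn3, Slfn1 and Slfn2 fell by 2.07, 1.62 and 1.24. Of 5 tested Ifitm genes, membrane proteins that restrict virus entry, 4 fell (median -1.55). Ifitm1 was at 5.13, 5.57, 5.53 and 4.04 in PBS and at 2.78, 2.85, 2.35 and 2.69 in ADSC (-2.40 ± 0.33 SE, adjusted p = 0.00923), and Ifitm6, Ifitm2 and Ifitm3 fell by 3.60, 1.55 and 1.39. Of 18 tested C-type lectin genes (Clec), pattern and platelet receptors among them, 7 fell (median -1.39 in cells and -0.39 in liver), from Clec5a at -2.60 to Clec4a3 at -1.54.

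Of 29 tested genes of thiol redox metabolism, 9 fell, with a median of -0.48 in cells and 0.07 in liver. Glutathione reductase (Gsr) went from 3.62, 4.21, 3.20 and 3.05 to 1.65, 1.80, 1.61 and 1.51 (-1.88 ± 0.27 SE, adjusted p = 0.0102), and glutaredoxin (Glrx) and G6pdx, which makes NADPH, fell by 2.02 and 1.85. Msra and Msrb1, which repair oxidised methionine, fell by 1.60 and 1.55, and thioredoxin (Txn1) by 1.24. Other members did not pass, such as Gpx1 at -0.07, Prdx2 at 0.15 and Prdx6 at -0.26. Of 12 tested S100 genes 4 fell (median -0.85), among them S100a11 and S100a6 by 1.79 and 1.72 beside S100a8 and S100a9, while S100a4 was at -1.01 (adjusted p = 0.216). Of 11 annexin genes 2 fell, Anxa1 by 3.11 and Anxa2 by 1.50 (family median -0.82 in cells and 0.05 in liver).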
